A study of Mus musculus with 9 samples.

Results

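The genes described here are 10 genes of the nephron progenitor, chosen by name: Cited1, Osr1, Meox1, Meox2, Uncx, Sall1, Gdnf, Itga8, Tmem100 and Crym. Six2, the best known regulator of these cells, was left out of the group by its definition and is used only for comparison. All 10 were measured in every library and all 10 passed the filter on low values, among 24539 genes with normalized counts and 19656 genes tested.

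Messenger RNA was sequenced from kidney cells of CD1 mouse embryos that had been sorted for CD133 (prominin-1), a surface protein of kidney epithelium. There were 9 libraries, 3 in each of 3 groups, collected at E18.5. The control vehicle group carried floxed Tsc1 alleles (Tsc1 fl/fl) with no Cre, although the sample titles call it wild type, and its dams received DMSO. The mutant vehicle group carried the same floxed alleles with Six2 Cre, and its dams also received DMSO. The mutant rapamycin group had the mutant genotype, and its dams were injected intraperitoneally with rapamycin on alternate days between E12.5 and E16.5, each dose being 0.2 mg/kg. All groups thus carried floxed Tsc1, and a rapamycin-treated control was not analysed here. Six2 Cre acts in nephron progenitors and their descendants, so stroma, vessels and ureteric epithelium keep Tsc1. Tsc1 mRNA itself had 1439.5 to 2041.4 normalized counts in the control libraries, 1569.9 to 1746.9 in the mutant vehicle libraries and 1525.9 to 1686.2 in the rapamycin libraries, and these ranges overlapped. A floxed exon is not resolved by counts over whole genes, so this level does not check the genotype.

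The nephron progenitors form a cap of mesenchyme around each tip of the branching ureteric bud. They either renew themselves or, on a Wnt signal from the bud, turn into the renal vesicles that become nephrons. In return the cap secretes GDNF, which acts on the RET receptor of the bud and drives its branching. Tsc1 encodes hamartin, a brake on the growth kinase complex mTORC1, and rapamycin inhibits that complex.

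The members fall into 3 kinds by role. Osr1, Meox1, Meox2, Uncx and Sall1 encode DNA-binding proteins, and Cited1 encodes a transcriptional co-regulator that marks the least committed cap cells. Gdnf encodes the secreted ligand, Itga8 the alpha chain of the integrin that binds nephronectin at the bud surface, and Tmem100 a small membrane protein. Crym encodes mu-crystallin, a cytosolic protein that binds thyroid hormone.

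Promoter windows were searched because several members moved between the groups. RefSeq windows on build GRCm38.p6, from 250 bases before to 50 bases after a start site, were at hand for 6 of the 10 members: Cited1, Meox2, Uncx, Sall1, Gdnf and Itga8. Both strands were searched for TATAAA (the TATA box), TCAGGTT (the MEF3 site bound by Six-family proteins), TAATTA (a homeodomain core) and CCAAT. No 2 matches in a member's window overlapped. Shown are 1 window each of Meox2, Cited1 and Gdnf, of which Meox2 passed the test in mutant against control kidneys. Cited1 and Gdnf passed it only with the replicate number as a block in those 2 groups, a fit added after seeing the data, and not with the planned block over 9 libraries. Capitals mark matches to TATAAA on either strand.
Meox2, chr12:37108290-37108589, + strand: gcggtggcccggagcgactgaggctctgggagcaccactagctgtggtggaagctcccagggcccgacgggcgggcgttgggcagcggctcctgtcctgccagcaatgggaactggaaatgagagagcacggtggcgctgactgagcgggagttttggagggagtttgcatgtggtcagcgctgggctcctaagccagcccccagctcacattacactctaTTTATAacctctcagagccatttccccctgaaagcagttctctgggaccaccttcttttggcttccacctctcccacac
Cited1, first of its 3 start sites, chrX:102252132-102252431, - strand: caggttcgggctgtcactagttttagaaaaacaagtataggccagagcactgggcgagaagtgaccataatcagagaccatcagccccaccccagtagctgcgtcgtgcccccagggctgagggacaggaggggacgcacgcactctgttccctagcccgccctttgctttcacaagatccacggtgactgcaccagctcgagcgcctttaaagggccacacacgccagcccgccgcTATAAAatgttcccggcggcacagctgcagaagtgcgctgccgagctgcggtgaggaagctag
Gdnf, first of its 2 start sites, chr15:7809798-7810097, + strand: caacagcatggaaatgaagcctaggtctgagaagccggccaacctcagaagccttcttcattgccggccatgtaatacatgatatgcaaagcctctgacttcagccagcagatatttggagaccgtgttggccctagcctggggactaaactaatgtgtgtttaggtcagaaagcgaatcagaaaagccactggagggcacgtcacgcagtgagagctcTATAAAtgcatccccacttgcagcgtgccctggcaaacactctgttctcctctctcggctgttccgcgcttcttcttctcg

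The Meox2 window held TATAAA on the opposite strand 29 bases before the start site, and its GC content was 60.7%. The Gdnf window held it on the sense strand 31 bases before the start site, at a GC content of 51.7%. The Cited1 window held it 13 bases before the start site. Of all 32817 promoter windows, 13.6% held TATAAA, and their median GC content was 52.7%. The Uncx window held TAATTA 133 and 30 bases before its start site, a motif present in 5.3% of all windows. None of the windows of the 6 members searched held TCAGGTT, which 4.07% of all windows held. Crym, Osr1, Meox1 and Tmem100 had no window at hand, so Crym and Osr1, which rose in the mutant, were not searched. CCAAT, found in 37.4% of windows, was present in a single window of each of Cited1, Uncx, Sall1 and Gdnf. Cited1 and Sall1 each had 3 windows and Gdnf had 2, so these shares per window do not apply per gene.

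Values are normalized counts, that is reads per gene divided by a size factor of the library. Library totals ranged from 23372093 to 32669791 counts. Genes of ribosomal RNA took 6.34% of control library 1 and 3.73% of rapamycin library 2, and 0.47% to 1.49% of the other libraries. Control library 1 also held 14 counts of Y-linked genes, against 1168 or more in each of the others. Xist, which female cells express, had 70235.1 normalized counts in control library 1 and 7681.1 in rapamycin library 1, against 20306.3 to 51167.7 in the others. The part of sex in the members' values was not tested. The labels call the sorted cells proximal tubule cells, but the libraries also held transcripts of several other cell types. Summed normalized counts of 14 stromal markers were 156939.4 to 172623.6 in the control, 151233.3 to 168122.6 in the mutant vehicle and 218161.3 to 273621.2 in the rapamycin libraries. The 8 proximal tubule markers summed to 21049.5 to 26445.2, 27266.5 to 30890.6 and 35747.4 to 47336 in the same order, and none of these or of the stromal markers was at 0 in any library. Such sums weigh high genes most, such as Lrp2 with 7607.2 to 12075.6 normalized counts in the control libraries. In mutant against control kidneys 6 of the 8 proximal tubule markers had positive and 2, Cubn and Slc34a1, negative fitted values. Between rapamycin and vehicle in mutants 7 of the 14 stromal markers were higher without overlap, against 1849 of all 19656 genes tested. Other stromal markers, such as Foxd1 and Acta2, overlapped. In sorted bulk samples, fewer cells of a type and less RNA per cell cannot be told apart.

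**Figure D1:**
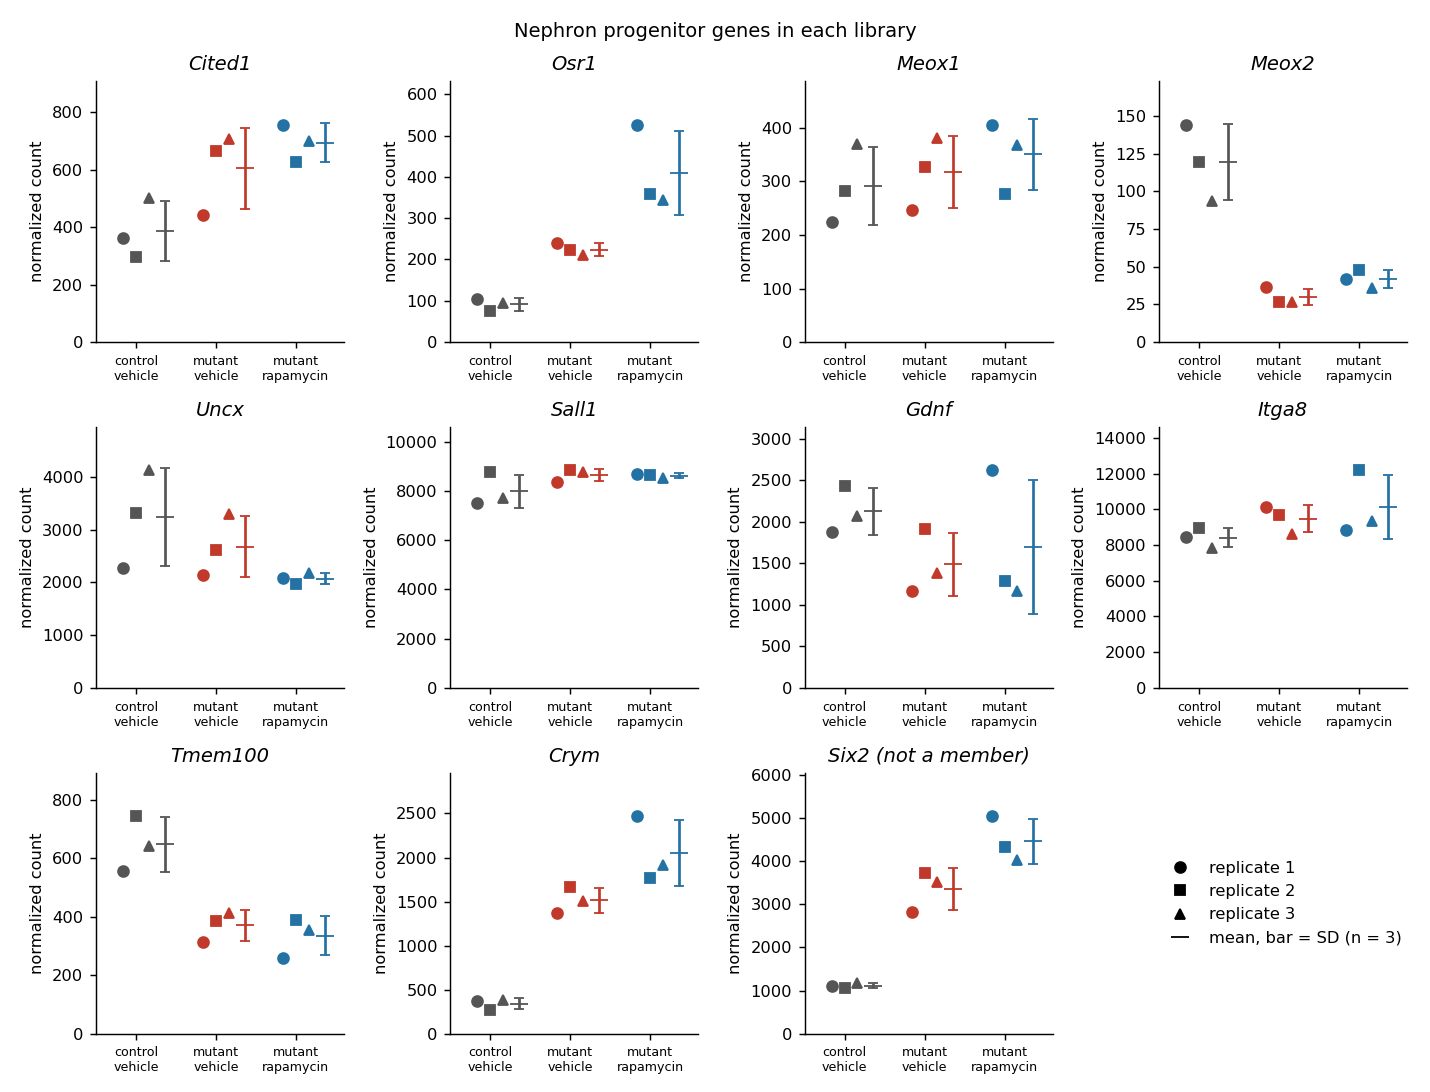
Normalized counts (y axis, linear from 0) of the 10 members and of Six2 in each library, by group on the x axis. Circles, squares and triangles are replicates 1, 2 and 3, and the bar beside them is the mean with its SD. Crym and Osr1 sat higher in every mutant library than in any control, Meox2 and Tmem100 lower, and Sall1 differed least.

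Levels were first set side by side per kilobase of exon, since longer transcripts give more reads. In the control libraries Sall1 was highest, with 1430, 1660 and 1460 normalized counts per kilobase. Itga8 (mean 1140) and Uncx (1030) followed and overlapped each other, and Gdnf (580), Tmem100 (367) and Cited1 (220) came next with no overlap between neighbours. Meox1 (131) and Crym (101) overlapped, and Meox2 (50.5) and Osr1 (44.2) were lowest and overlapped. Six2 lay at 523 ± 27.7 per kilobase (SD, n = 3).

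The order among the 10 differed between groups. Crym was the 8th of the 10 in the control and the 4th in both mutant groups, at 446 ± 43.2 per kilobase with vehicle and 604 ± 109 with rapamycin (SD, n = 3 each). Osr1 was the 10th in the control, the 9th in the mutant with vehicle and the 7th with rapamycin. Meox2 was the lowest in both mutant groups, at 12.7 ± 2.33 and 17.8 ± 2.55 per kilobase (SD, n = 3 each). In the mutant vehicle libraries Crym overlapped Gdnf, Gdnf overlapped Cited1 and Meox1 overlapped Osr1, whereas all other neighbours in the order were apart. With rapamycin the libraries of Sall1 and Itga8 overlapped, as did each neighbouring pair from Uncx down to Cited1 and from Osr1 down to Meox1.

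The first comparison set the mutant vehicle libraries against the control vehicle libraries. These groups differ in loss of Tsc1 in the nephron lineage and in carrying Six2 Cre, and the comparison does not tell these apart. Crym rose 4.44-fold and Osr1 rose 2.46-fold, and Meox2 fell to 0.259 of its control level. The other 7 members did not pass the test, and Sall1, Itga8, Uncx and Meox1 had overlapping libraries and fitted log2 changes between -0.25 and 0.17. The rule for a call was limma's p under 0.05 after Benjamini-Hochberg adjustment across every gene tested. By this rule 3 of the 10 members were called, 2 higher and 1 lower, against 1.42% of all genes tested (1.05% higher and 0.366% lower). The 3 libraries of each group did not overlap for 4 members, and for 13.3% of all genes. The members' median log2 fold change was 0.13, against -0.01 for all genes tested.

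Crym had 376.4, 272.1 and 378.5 normalized counts in control libraries 1, 2 and 3, and 1371.4, 1663.7 and 1501.7 in the mutant vehicle libraries. Every mutant library lay above every control library by a wide gap. In limma the log2 fold change was 2.15 ± 0.17 (SE; 95% interval 1.78 to 2.53; adjusted p = 0.000174). Crym (ENSMUSG00000030905) lies on chromosome 7 from 120186380 to 120202111, minus strand, on GRCm38, and overlaps no other annotated gene.

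Osr1, a zinc-finger factor needed for the earliest kidney mesenchyme, had 104.5, 75.42 and 93.7 normalized counts in the control libraries and 240.8, 221.8 and 209.7 in the mutant vehicle libraries. The groups did not overlap, and the mutant libraries differed little among themselves. The log2 fold change was 1.30 ± 0.21 (SE; 95% interval 0.84 to 1.75; adjusted p = 0.0118). The call was lost without control library 2 (adjusted p = 0.0653) or mutant vehicle library 2 (adjusted p = 0.071). Osr1 (ENSMUSG00000048387) lies on chromosome 12 from 9570116 to 9581500, plus strand, and shares its locus with 1700022H16Rik on the other strand, for which no normalized count was given.

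Meox2, a homeobox gene of mesoderm, went the other way, with 144.2, 119.4 and 93.7 normalized counts in the control libraries and 36.27, 26.74 and 26.78 in the mutant vehicle libraries. The lowest control library was well above the highest mutant library, although the mutant values rest on only 24 to 36 raw reads each. On the log2 scale the change was -1.95 ± 0.26 (SE; 95% interval -2.51 to -1.38; adjusted p = 0.00343), a 3.86-fold lower level. Meox2 (ENSMUSG00000036144) lies on chromosome 12 from 37108540 to 37179534, plus strand, and the overlapping Gm48617 on the same strand averaged 3.3 normalized counts. Its paralog Meox1 had 223.4, 281.9 and 369.3 normalized counts in the control libraries and 245.9, 326.8 and 380.4 in the mutant vehicle libraries, which overlapped. The Meox1 difference was 0.13 on the log2 scale, with a 95% interval of -0.39 to 0.65 (adjusted p = 0.957).

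Tmem100 had 555.8, 744.3 and 643 normalized counts in the control libraries and 312.4, 386.2 and 412.8 in the mutant vehicle libraries. The groups did not overlap, but the log2 fold change of -0.80 ± 0.19 (SE) did not pass the test (adjusted p = 0.0788). In the authors' deposited table the same comparison had a log2 fold change of -0.81 and an adjusted p of 0.00441. That table held 594 genes with an adjusted p under 0.05 in this comparison, against 279 called here. Tmem100 (ENSMUSG00000069763) lies on chromosome 11 from 90030348 to 90036508, plus strand, and overlaps no other gene.

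Cited1 had 363.2, 295.4 and 500.7 normalized counts in the control libraries and 444.4, 665.5 and 707.3 in the mutant vehicle libraries. Mutant library 1 lay below control library 3, so the groups overlapped. Its fitted log2 fold change was 0.65 ± 0.22 (SE; 95% interval 0.16 to 1.14; adjusted p = 0.266). Cited1 is on the X chromosome, and without control library 1, which held almost no Y-linked RNA, the value was 0.62.

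Gdnf had 1875.3, 2437.7 and 2074.3 normalized counts in the control libraries and 1169.8, 1914.3 and 1380.1 in the mutant vehicle libraries. Mutant library 2 lay just above control library 1, so the groups overlapped by that pair. Its fitted log2 fold change was -0.54 ± 0.28 (SE; 95% interval -1.15 to 0.07; adjusted p = 0.59).

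With the replicate number as a block over all 9 libraries, the planned form of that fit, 4 of the 10 members were called, 2 higher and 2 lower, and so were 272 higher and 133 lower genes of all tested. The call gained was Tmem100 (adjusted p = 0.0151), whereas Cited1 (adjusted p = 0.162) and Gdnf (adjusted p = 0.538) did not pass. With the block fitted in the mutant vehicle and control libraries alone, a form added after seeing the data, 6 members were called, 3 higher and 3 lower, and so were 798 higher and 600 lower genes. Cited1 (adjusted p = 0.0332), Gdnf (adjusted p = 0.00404) and Tmem100 (adjusted p = 0.0011) passed there, so the calls of Cited1 and Gdnf were lost under the planned block. Crym, Osr1 and Meox2 were called without a block and under both blocks, and fold changes were the same.

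Sall1, a zinc-finger factor that maintains the progenitor pool, had 7515.3, 8753.4 and 7700.9 normalized counts in the control libraries and 8381.3, 8838.6 and 8769.2 in the mutant vehicle libraries. Its 95% interval of -0.10 to 0.34 on the log2 scale was the narrowest among the members. Itga8 had 8426.5, 8958.1 and 7858 in the control libraries and 10099.3, 9676.4 and 8621.9 in the mutant vehicle libraries, with an interval of -0.13 to 0.47. The Itga8 locus is shared with E030013I19Rik on the other strand, which averaged 177.8 normalized counts, and whether reads were counted by strand is not given in the sources used here. Uncx, a homeobox gene, had 2274.7, 3313.2 and 4122.8 in the control libraries and 2139.2, 2607.5 and 3291.2 in the mutant vehicle libraries, with an interval of -0.71 to 0.21. The groups overlapped for all of Sall1, Itga8 and Uncx, and none of them passed the test (adjusted p from 0.806 to 0.822).

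**Figure D2:**
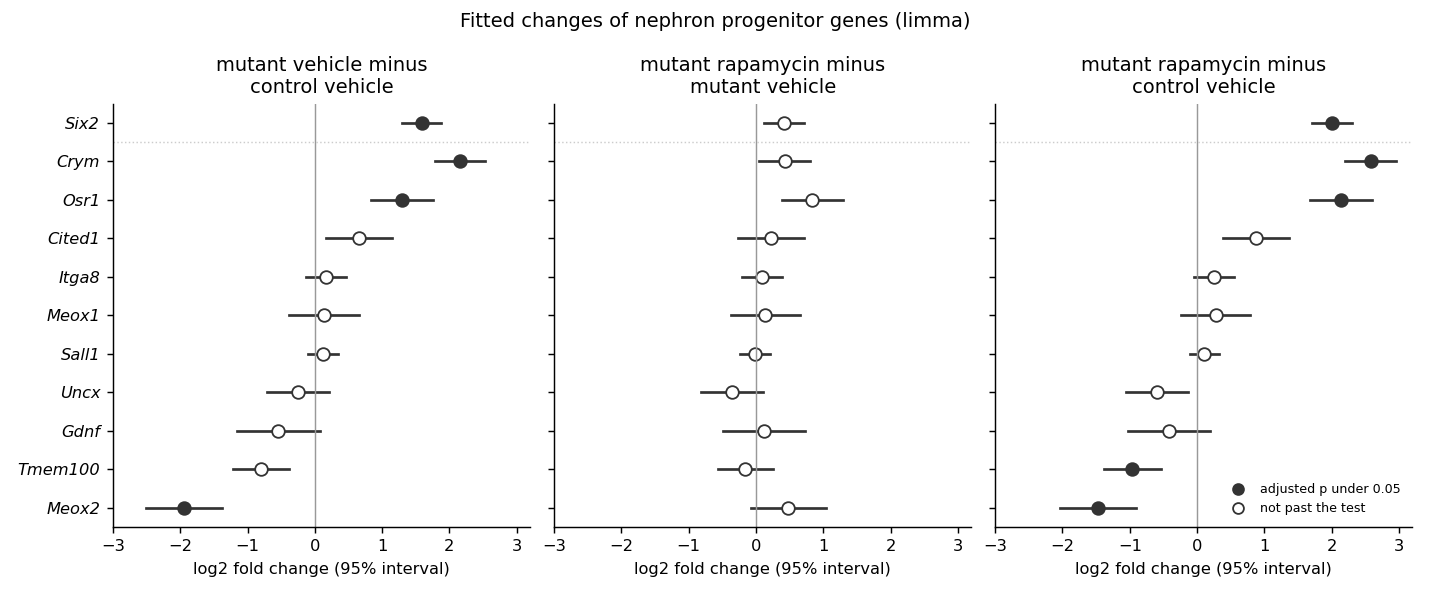
Fitted log2 fold change of each member and, above the dotted line, of Six2 (y axis) in the 3 comparisons, with 95% intervals (x axis). Filled points passed an adjusted p under 0.05 and open points did not. Crym and Osr1 lie to the right and Meox2 to the left of 0 in both comparisons with the control, and no point is filled in the middle panel.

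The second comparison asked what rapamycin changed in mutant kidneys. None of the 10 members passed the test in limma, against 0.300% of all genes tested (0.244% higher and 0.0560% lower), and 0 passed in limma-voom on the raw counts. Before adjustment 2 of 10, Osr1 and Crym, had a p under 0.05, against 11.7% of all genes tested. The libraries of these 2 did not overlap between the groups, as was true of 18.4% of all genes. The median log2 fold change was 0.13 for the members and -0.01 for all genes.

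Osr1 had 526.6, 358.1 and 344.4 normalized counts in the rapamycin libraries, all above the 209.7 to 240.8 of the mutant vehicle libraries. Rapamycin library 1 was the highest by a clear gap. The log2 fold change was 0.84 ± 0.21 (SE; 95% interval 0.39 to 1.30; unadjusted p = 0.00189, adjusted p = 0.143). Without rapamycin library 1 it was 0.65. The authors' deposited table gave 0.87 with an adjusted p of 0.00808, and held 390 genes under 0.05 in this comparison, against 59 called here.

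Crym had 2469.6, 1765.2 and 1913.9 normalized counts in the rapamycin libraries, against a highest value of 1663.7 with vehicle. On the log2 scale this was a difference of 0.43 ± 0.17 (SE; 95% interval 0.05 to 0.80; adjusted p = 0.363). Rapamycin library 1 was again the highest, and without it the value was 0.29. Six2 had its highest value in the same library, at 5043.9 normalized counts against 4318.6 and 4032.2 in the other rapamycin libraries. The stromal marker sum was also highest there, at 273621.2, and its part in these values was not tested.

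Meox2 had 41.89, 48.05 and 36.03 normalized counts with rapamycin, only partly above the 26.74 to 36.27 seen with vehicle. The log2 fold change of 0.48 ± 0.26 (SE) had a 95% interval of -0.08 to 1.04 (adjusted p = 0.507). All 3 rapamycin values remained under the lowest control value of 93.7.

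Gdnf had 2621.2, 1289.3 and 1173.1 normalized counts with rapamycin. Library 1 held the highest Gdnf value of the whole study, and libraries 2 and 3 lay inside the mutant vehicle range. On the log2 scale the difference was 0.12 ± 0.28 (SE; adjusted p = 0.927) and -0.24 without rapamycin library 1. Without mutant vehicle library 1 it was -0.04, so the direction for Gdnf turned with either library left out.

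The other members showed smaller differences. Tmem100 had 260.3, 387.8 and 356.1 normalized counts with rapamycin and a log2 difference from the mutant vehicle group of -0.16 (95% interval -0.57 to 0.26), or 0.01 without rapamycin library 1. Cited1 had 758, 625.8 and 702.2 and a difference of 0.22 (-0.26 to 0.71). Uncx had 2073.6, 1963.1 and 2178.6, the tightest Uncx values of any group, and a difference of -0.35 (-0.81 to 0.11). Itga8 had 8827.1, 12177.8 and 9368.2, Meox1 had 405.9, 276.8 and 367.9, and Sall1 had 8706.4, 8633.7 and 8525.2 normalized counts, all overlapping the mutant vehicle values. The log2 differences were 0.09 for Itga8, 0.14 for Meox1 and -0.01 for Sall1, with 95% intervals of -0.21 to 0.38, -0.37 to 0.66 and -0.23 to 0.21.

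The third comparison set the mutant rapamycin libraries against the same control libraries as the first, so the 2 are not independent. It joins genotype and treatment, and the groups do not tell these apart. Crym was 5.98-fold and Osr1 4.41-fold above the control level, both higher by the test, and Meox2 and Tmem100 were lower by 2.77-fold and 1.95-fold. These 4 of 10 members were called, 2 higher and 2 lower, against 3.24% of all genes tested (2.30% higher and 0.941% lower). The groups did not overlap for 6 members and for 23.1% of all genes. The members' median log2 fold change was 0.18, against 0 for all genes.

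The log2 fold change of Crym was 2.58 ± 0.17 (SE; adjusted p = 4.5e-05) and that of Osr1 was 2.14 ± 0.21 (SE; adjusted p = 0.000414). Both were called without any 1 of the 9 libraries. Meox2 changed by -1.47 ± 0.26 (SE; adjusted p = 0.0122), and the call was lost without control library 2 (adjusted p = 0.071), rapamycin library 1 (adjusted p = 0.054) or rapamycin library 3 (adjusted p = 0.0633). Tmem100 changed by -0.96 ± 0.19 (SE; adjusted p = 0.0229), and its call was lost without control library 2 (adjusted p = 0.124), control library 3 (adjusted p = 0.0572), rapamycin library 1 (adjusted p = 0.0875) or rapamycin library 3 (adjusted p = 0.066). Without control library 2, rapamycin library 1 or rapamycin library 3, the count of called members was therefore 2.

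Cited1 and Uncx were the remaining members with no overlap. All 3 rapamycin values of Cited1 exceeded the highest control value of 500.7, and the log2 fold change was 0.88 ± 0.22 (SE; 95% interval 0.39 to 1.36; adjusted p = 0.0586). The authors' deposited table gave 0.85 with an adjusted p of 0.00977, and held 1228 genes under 0.05 in this comparison, against 637 called here. All 3 rapamycin values of Uncx were below the lowest control value of 2274.7, which came from control library 1, and the log2 fold change was -0.60 ± 0.21 (SE; adjusted p = 0.158). Without control library 1 it was -0.84 and passed the test (adjusted p = 0.0212). Cited1 passed it without control library 3 (adjusted p = 0.0302) or mutant vehicle library 1 (adjusted p = 0.0299).

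Gdnf, Itga8, Meox1 and Sall1 overlapped between rapamycin and control libraries. Their 95% intervals on the log2 scale were -1.03 to 0.19, -0.04 to 0.55, -0.24 to 0.79 and -0.11 to 0.33. Leaving out both libraries with the highest share of ribosomal RNA, control 1 and rapamycin 2, left the counts of called members at 3, 0 and 4 in the 3 comparisons.

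The genes most like a called member were sought as the 3 with the smallest root-mean-square difference in centred log2 values over the 9 libraries, among 12935 other genes with a mean of at least 50 normalized counts. For Osr1 they included Adamts17 (0.22) and Six2 (0.26). For Crym they were Actn3 (0.20), AW551984 (0.30) and Six2 (0.30). Six2 thus stood among the nearest genes of both members that rose. For Meox2 they were Ankrd63 (0.27), Dkk2 (0.28) and Akr1c19 (0.37), and for Tmem100 B3galt5 (0.10), ccdc198 (0.12) and Atp6v0d2 (0.13). The 9 libraries share 3 group means, so any gene that differs between groups in the same way lies close by this measure.

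Other genes of the cap mesenchyme were examined as a list of 28, of which 27 were tested. In mutant against control kidneys the test called 5 higher and none lower: Six2, Eya1, Fgf20, Traf1 and Spock2. Of all genes tested, 1.05% were called higher and 0.366% lower. Of the 27, 18 had positive and 9 negative fitted values. Without overlap 8 were higher and 3 lower (Fgf9, Lypd1 and Hey1), against 13.3% of all genes in either direction. Six2 rose by 1.59 ± 0.13 on the log2 scale (SE; adjusted p = 0.000211), Eya1, its binding partner, by 1.66 ± 0.15 (adjusted p = 0.000269) and Fgf20, a growth factor that keeps progenitors alive, by 1.73 ± 0.24 (adjusted p = 0.00473). The list's median log2 fold change was 0.13, the same as that of the members. The count of called genes was 3 without control library 2, mutant vehicle library 2 or mutant vehicle library 3. It was 3 with only the 2 groups compared, 6 with the replicate block over 9 libraries and 9 with the block in the 2 groups. Against control kidneys the test called 8 of the 27 higher with rapamycin and none lower, against 2.30% and 0.941% of all genes tested. The list's median there was 0.20, with 20 positive and 7 negative fitted values. Without overlap 11 genes were higher and 3 lower, against 23.1% of all genes in either direction. The count called was 5 without control library 2, rapamycin library 1 or rapamycin library 2. Between rapamycin and vehicle in mutants only Smoc2, a matrix protein, was called (log2 fold change 1.2 ± 0.17, SE; adjusted p = 0.0209), and it was not called without any 1 of mutant vehicle libraries 2 and 3 or the 3 rapamycin libraries, without control 1 and rapamycin 2 together, or with the block in the 2 groups.

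For the next step of the lineage, the committed nephron with its renal vesicle, all 19 listed genes were tested. In mutant against control kidneys 17 of the 19 had negative fitted values, against 9991 of all 19656 genes tested. The list's median was -0.38, but the test called only Dkk1, a Wnt inhibitor (-1.01 ± 0.19, SE; adjusted p = 0.0271). Of all genes tested, 0.366% were called lower in that comparison. With the replicate block over 9 libraries 3 of the list were called and with the block in the 2 groups 7, all lower. Dkk1 was not called with only the 2 groups compared, or without control library 2, mutant vehicle library 2 or mutant vehicle library 3. In rapamycin against control kidneys the list's median was -0.53, with 17 negative and 2 positive fitted values. The test called 7 of the 19 lower and none higher, against 0.941% lower and 2.30% higher of all genes tested. Among them were Lhx1 (-1.48 ± 0.20, SE; adjusted p = 0.00305), Fgf8 (-1.87 ± 0.28, SE; adjusted p = 0.00549) and the Notch ligand gene Dll1 (-1.06 ± 0.16, SE; adjusted p = 0.00673). That count was 3 without control library 2, control library 3, rapamycin library 1 or rapamycin library 2, and 4 without mutant vehicle library 2 or rapamycin library 3 or with only the 2 groups compared. Between rapamycin and vehicle in mutants limma called 0 of 19, and limma-voom also called 0. In limma 6 of the 19 had an unadjusted p under 0.05, against 11.7% of all genes tested.

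**Figure D3:**
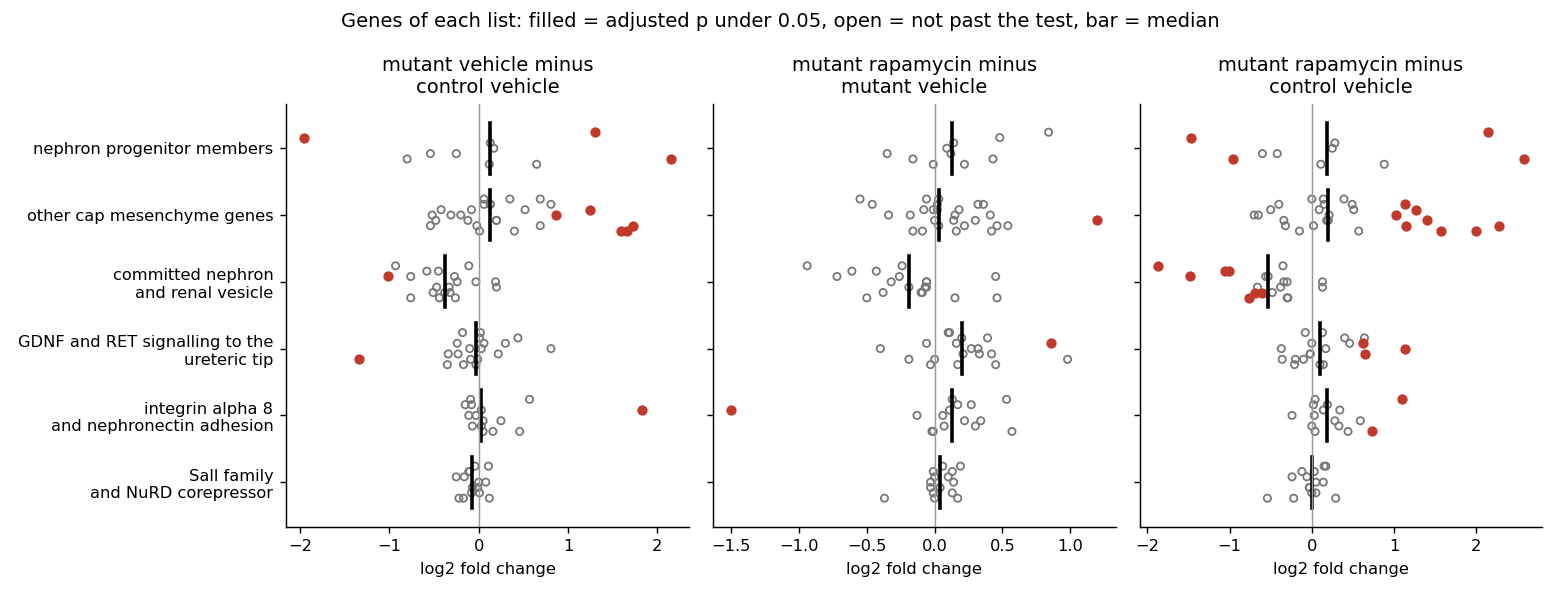
Log2 fold change (x axis) of every tested gene in the members and 5 related lists (y axis) in the 3 comparisons. Filled points passed an adjusted p under 0.05, and the bar is the list's median. Called cap mesenchyme genes all lie to the right of 0 and called committed nephron genes to the left.

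Gdnf was read beside 19 genes of its pathway. In mutant against control kidneys its receptor gene Ret had a log2 value of -0.23 and the co-receptor gene Gfra1 0.44, and neither passed the test (adjusted p = 0.841 and 0.394). The list's median was -0.03. In mutants Wnt11 was higher with rapamycin than with vehicle; it encodes a Wnt ligand that the bud tip makes downstream of RET (0.86 ± 0.13, SE; adjusted p = 0.0243). Robo2, Dusp6 and Wnt11 were higher in rapamycin than in control kidneys, by 1.13, 0.65 and 0.62. These were the 3 of 19 called there, against 2.30% of all genes tested called higher. Robo2 is also in the cap mesenchyme list, so the calls of the 2 lists are not separate. Each of the Wnt11 calls, and the count of 3 in rapamycin against control kidneys, changed when single libraries were left out: the first ended without control library 2, mutant vehicle library 2 or 3, or any rapamycin library, without control 1 and rapamycin 2 together, under limma-voom and with the block in the 2 groups, and the count was 0 without control library 2 or rapamycin library 2 and 1 without rapamycin library 1 or 3. That count was also 1 without control 1 and rapamycin 2 together or with the block in the 2 groups, and 5 with the block over 9 libraries. The sum of 7 ureteric bud markers differed between the same libraries: it was 4590 to 5598.1 normalized counts in the control, 2917.5 to 3366.4 in the mutant vehicle and 5172.6 to 5641 in the rapamycin libraries. Aqp2 alone had 794.6 to 1729.8, 132.7 to 246.6 and 955.5 to 1174 in the same order. In mutant against control kidneys all 7 had negative fitted values, but those of Hoxb7 (-0.04) and Calb1 (-0.09) were small. Between rapamycin and vehicle in mutants 6 were positive and Hoxb7 was -0.26. The part of these markers in the values of Ret and Wnt11, which are in that marker list too, was not tested.

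Itga8 was read beside 15 genes of integrin adhesion. Its partner chain Itgb1 had a log2 value of -0.09 in mutant against control kidneys and its ligand gene Npnt 0.05, neither past the test (adjusted p = 0.912 and 0.979). Spp1, which encodes the integrin ligand osteopontin, rose by 1.83 ± 0.22 (SE; adjusted p = 0.00224) in the mutant and was lower with rapamycin than with vehicle (-1.5 ± 0.22, SE; adjusted p = 0.0235). The second of these calls was lost without control library 2, mutant vehicle library 2 or 3, or rapamycin library 1 or 2, without control 1 and rapamycin 2 together, and with the block in the 2 groups. Tnc and Fn1, matrix proteins made in quantity by stroma, were higher in rapamycin than in control kidneys, by 1.10 and 0.73, and 1 of these calls was lost without control library 2, rapamycin library 1 or rapamycin library 2. The stromal marker sums given above were higher in the same rapamycin libraries, and their part was not tested.

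Sall1 acts with the NuRD corepressor, and 15 of 16 listed genes of its family and of that complex were tested. In limma 0 were called in each comparison, with 0, 0 and 2 at an unadjusted p under 0.05 in mutant against control, rapamycin against mutant vehicle and rapamycin against control kidneys, and limma-voom called 0 in each. Of all genes tested, 10.1%, 11.7% and 17.5% had an unadjusted p under 0.05 in limma in that order. The medians of the 15 genes were -0.07, 0.04 and 0 in that order.

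Markers of further cell types are given for the libraries in which Crym, Osr1, Meox2 and Tmem100 were measured. The 8 endothelial markers summed to 20190.6 to 22738.6 normalized counts in the control, 18734.9 to 24364 in the mutant vehicle and 23919.7 to 33344.2 in the rapamycin libraries. The 5 podocyte markers summed to 8917.2 to 10651.8, 9240.7 to 10084.5 and 5850.4 to 8238.6 in the same order. The 6 leukocyte markers summed to 8909.7 to 12760.7, 9294.2 to 20451.1 and 9423.1 to 12472.8. Crym and Actn3 are also expressed in skeletal muscle. The 9 of 13 muscle markers with a value summed to 193.7 to 254.5, 210.6 to 299.1 and 157.9 to 227.4 in the same order, with no normalized value for Myod1, Myog, Myf5 and Ckm. Tnnt3 alone had 91.34 to 129.5, 128 to 202 and 93.85 to 149.6. Of the 5 muscle markers tested in mutant against control kidneys, 2 had positive and 3 negative fitted values, and 0 were called. In mutant against control kidneys the stromal, podocyte and leukocyte lists held no gene called by limma and 0 called by limma-voom. At an unadjusted p under 0.05 in limma they held 2 of 14, 0 of 5 and 3 of 6, against 10.1% of all genes tested. The ureteric bud list had 3 of 7 called lower there, namely Aqp2, Gata3 and Wnt9b, against 0.366% of all genes tested. With any 1 library left out the count was 1 to 2. It was 1 without control library 2, mutant vehicle library 2 or 3, or any 1 rapamycin library. The part of any of these cell types in the members' values was not tested.

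**Figure D4:**
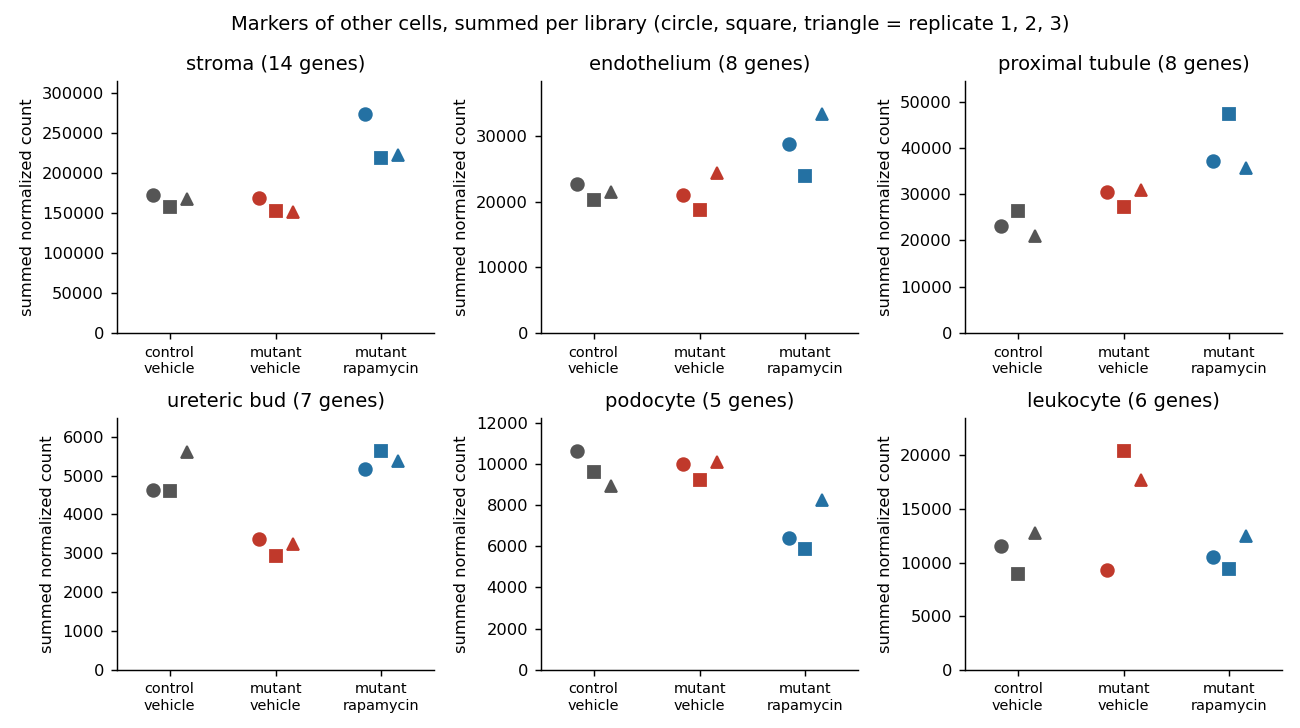
Summed normalized counts of marker genes (y axis, linear from 0) for 6 other cell types in each library, by group on the x axis. Circles, squares and triangles are replicates 1, 2 and 3. Stromal and proximal tubule sums are highest in the 3 rapamycin libraries, and ureteric bud sums lowest in the 3 mutant vehicle libraries.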

How the data were processed

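CD133-sorted cells of embryonic mouse kidneys were sequenced in 9 libraries, grouped by the sample labels. Per the submitters' processing notes, the build was GRCm38 and the tools were TopHat2 2.1.1 with cutadapt 1.18, DESeq2 1.22.1 and HTSeq 0.6.0; strand setting and annotation release were not found. The authors deposited 1 table of raw counts, normalized counts, log2 fold changes and p-values, in which 6252 of 54838 genes carry a mark in place of a count and other genes have no normalized value. Dividing raw counts by 1 size factor per library (0.874 to 1.193) gives the deposited normalized counts.

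Here log2(normalized count + 1) was tested with limma 3.58.1 (statmod 1.5.0, R 4.3.3; trended, robust) for genes with a mean of at least 5, in 1 fit of 3 group means over 9 libraries (6 residual degrees of freedom), with Benjamini-Hochberg adjustment over 19656 genes. Fold changes on this scale understate those of low genes. The planned edgeR test was not run, because columns with that mark were not accepted as counts. On simulated data the fit recovered 96% of 2-fold and 100% of 4-fold changes, and 4.85% of its calls were unchanged genes (mutant against control, 19678 genes). The simulated changed genes had a mean of at least 50, and the spread was set in advance and not taken from these libraries. Among the members the SD reached 28.6% of the mean in the control group (Uncx) and 47.5% with rapamycin (Gdnf). The simulated shares therefore do not give the recovery for the members. Nothing says that replicates came from separate embryos, so p-values measure the spread between libraries, which may be technical. Y-linked counts of 14, 2650 and 1168 in control libraries 1, 2 and 3 show that library 1 was not a technical repeat of the others. Xist also differed within groups, for example 7681.1, 50021 and 23575.5 normalized counts in rapamycin libraries 1, 2 and 3. Every library but control 1 held both Xist and Y-linked RNA in quantity. Whether these values come from separate embryos was not tested. No libraries of a group agreed within sampling noise (lowest chi-square per degree of freedom 15.6).

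Replicate numbers were checked for pairing by correlating deviations from group means: same-numbered control and mutant vehicle libraries gave 0.428, 0.137 and 0.445, all over 0.1, so fits blocked on the number, over 9 libraries as planned and in those 2 groups as added after seeing the data, are printed beside that comparison. Levels per kilobase used GENCODE M21 exon lengths, and promoter windows came from RefSeq (GRCm38.p6). The members and lists, including up to 3 called genes named per list by smallest p, were chosen with earlier results of these data known. Traf1, Spock2, Gata3, Aqp2, Wnt9b and the genes of the last part were named after their values were seen. A few results of the lists and nearest genes are not reported here.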

Additional observations from a re-analysis of the deposited data

How the results depend on the processing

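Other scalings, pseudocounts and filters, limma-voom, a fit of only the groups compared, the replicate block and the omission of single libraries were tried; edgeR was not run. Crym was called in both comparisons with the control, Meox2 in mutant against control and Osr1 in rapamycin against control, under every alternative run. All genes called in mutant against control numbered 279, or 99 with only the 2 groups compared, 405 with the planned block over 9 libraries, 1398 with the block on the 2 groups, and 81 to 336 with 1 library left out; members numbered 3, or 4 and 6 with these blocks, and 2 to 3 with 1 library left out. In rapamycin against mutant vehicle the count of all genes was 59, or 206 with the replicate block over 9 libraries, 7 with it in the 2 groups, 22 without control 1 and rapamycin 2, and 0 to 200 with 1 library left out; members stayed at 0. In rapamycin against control it was 637, or 1090 and 418 with these blocks and 175 to 1131 with 1 library left out; members ranged from 2 to 5 with 1 library left out, and were 6 and 5 with the blocks, which added Cited1 (adjusted p = 0.0341 and 0.0493) and, over 9 libraries, Uncx (adjusted p = 0.0428). Rapamycin libraries share only a number with the others (same-number correlations -0.338, -0.0139 and 0.218 with control, -0.134, 0.0768 and 0.0614 with mutant vehicle), and they did not all correlate best with their own number.

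Directions that turned were of uncalled members, and the cause was not tested. Without control 1 and rapamycin 2, Meox1 in mutant against control was -0.05 and Itga8 in rapamycin against mutant vehicle -0.05; under TMM scaling Sall1 in the latter was 0.00. With 1 library left out, Meox1 ranged from -0.05 to 0.32 in mutant against control, and in rapamycin against mutant vehicle Meox1 ranged from -0.03 to 0.30, Gdnf from -0.24 to 0.34, Sall1 from -0.03 to 0.01, Tmem100 from -0.27 to 0.01 and Itga8 from -0.05 to 0.18. Meox2 rests on 24 to 36 raw reads per mutant vehicle library, which limits its precision.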

Other observations

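Paralogs of 2 members were read as values, chosen after the data were seen. Osr2, the paralog of Osr1 and a gene of more differentiated kidney mesenchyme and nephron, had log2 fold changes of -0.58 in mutant against control (adjusted p = 0.281), -0.43 in rapamycin against mutant vehicle (adjusted p = 0.442) and -1.01 in rapamycin against control (adjusted p = 0.0235), opposite in sign to Osr1 in each. Sall2, a paralog of Sall1, had values of -0.04, 0.19 and 0.15 in the same order, none past the test.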
